A study of Mus musculus with 40 samples.

Results

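Rag1, Rag2 and Dntt, the genes whose products cut and diversify the antigen receptor genes, were followed through every library of a mouse thymus RNA-seq study. They were taken by symbol, and all 3 were found in each of the 3 deposited count tables, which list 23284, 23107 and 23107 genes. In the DN3 stage the level of Rag1 was 1983 ± 200 CPM 8 weeks after deletion of Zmiz1 and 3373 ± 473 CPM in its controls (SD, n = 3 each), while Dntt did not move with the deletion beyond the spread of the libraries. In DN3 cells after 24 hours of Notch1 blockade Dntt rose and Rag1 fell. The largest differences of Rag1 and Rag2 lay between the stages, with DN3 above ETP in every library of the pI-pC and antibody table.

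RAG1 and RAG2 form the recombinase that cuts DNA beside the V, D and J segments of T-cell and immunoglobulin receptor genes. RAG1 carries the catalytic centre, and RAG2 binds chromatin marked as active and is degraded in cells that enter the cycle. Dntt encodes terminal deoxynucleotidyl transferase (TdT), which adds untemplated bases to the cut ends before non-homologous end joining closes them. In the mouse thymus the early T-cell precursor (ETP) is the most immature stage, and DN3 is the later stage in which the T-cell receptor beta gene is rearranged.

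Cells of C57BL/6 mice were sorted as DN3 thymocytes or ETP and their RNA was sequenced in 40 libraries of 12 groups. DeltaMxCre mice (MxCreZmiz1f/f) lose Zmiz1, a transcriptional cofactor of Notch1, through a Cre recombinase that the interferon response to pI-pC switches on. DeltaMxCre mice and MxCre mice, which carry the Cre without the floxed gene, both received 40 mcg of pI-pC every 2 days for 5 injections, and cells were taken 8 weeks later from 3 mice per group. DeltaTamCre mice (Rosa26CreERT2Zmiz1f/f) carry a tamoxifen-activated Cre expressed in nearly all cell types. DeltaTamCre and TamCre (Rosa26CreERT2) mice both received 0.2 mg/g tamoxifen, with cells sorted after 43 to 44 hours from 4 mice per group. Other mice received 10 mg/kg of a Notch1-blocking antibody (AntiNRR, aimed at the part of the receptor that keeps it inactive) or an isotype control (IgG), with sorting after 24 hours and 3 libraries per group. The number of mice behind the antibody libraries, and ages, are not given in the labels, which also do not say whether ETP and DN3 libraries of the same number came from the same mouse. Where libraries share a mouse or culture, p-values measure only the spread between libraries.

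Total counts were 9456818 to 23962395 per library in the table of pI-pC and antibody samples, 48127197 to 91659598 in the tamoxifen DN3 table and 17418638 to 30975324 in the tamoxifen ETP table. The 3 tables came from different library kits, so no test joined them. Zmiz1 was lower in every deleted library than in every control library of its comparison, at 113 to 129 CPM against 286 to 349 CPM in pI-pC DN3 and 184 to 243 CPM against 301 to 353 CPM in tamoxifen DN3. In ETP it had 58.7 to 114 CPM in DeltaMxCre against 157 to 319 CPM in MxCre, and 120 to 307 CPM in DeltaTamCre against 417 to 461 CPM in TamCre. The labels state the same CD44+ CD25- surface phenotype for both stages, with cKit added for ETP. In the pI-pC and antibody table Cd44 had 0.536 to 6.94 CPM in DN3 libraries and 47.9 to 193 CPM in ETP libraries, and Ptcra, the pre-T-cell receptor chain of DN3 cells, was called higher in DN3 in 3 of the 4 pairs of groups, AntiNRR excepted (69.1 ± 12.8 CPM in DN3 and 6.18 ± 7.84 CPM in ETP, SD, n = 3 each, edgeR adjusted p = 0.107). Il2ra, which encodes CD25, had 270 to 5022 CPM in those ETP libraries, so its transcript was not absent from cells labelled CD25-. CPM here are library-scaled counts, normalised between libraries by TMM, and "called" means an adjusted p under 0.05 by edgeR unless DESeq2 is named.

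Rag1 and Rag2 lie next to each other on chromosome 2 and Dntt lies alone on chromosome 19 (GRCm38, GENCODE M21). Rag1 spans chr2:101638282-101649501 on the minus strand with 2 exon blocks and 6608 exonic bases. Rag2 spans chr2:101624718-101632529 on the plus strand with 3 exon blocks and 3424 exonic bases, and 5752 bases separate its end from the end of Rag1. Dntt spans chr19:41029275-41059525 on the plus strand with 13 exon blocks and 2292 exonic bases. Another annotated gene, B230118H07Rik (chr2:101560781-101649532, minus strand), runs across both Rag genes. It shares 80 exonic bases with Rag1, on the same strand, and 208 with Rag2, on the opposite strand. Whether the deposited counts used strand is not given in the sources used here, so reads in those shared bases cannot be assigned with certainty. The counted level of B230118H07Rik itself averaged 1.09 to 7.96 CPM over the 12 groups.

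The promoters are shown because Rag1 and Rag2 differed between the stages while Dntt, in the same cells, had another pattern. Each window runs from 250 bases before to 50 bases after the RefSeq start (GRCm38.p6), read 5′ to 3′ on the gene's strand. Windows are chr2:101649483-101649782 (minus strand) for Rag1, chr2:101624462-101624761 (plus strand) for Rag2 and chr19:41029025-41029324 (plus strand) for Dntt. Capitals mark every match, on either strand, to words known for several kinds of factor. The E-box was searched as CANNTG. The word of Rbpj, the DNA-binding partner of Notch, was TGGGAA, which contains the core bound by Ikaros. The word of Runx factors was TGTGGT. The words of Gata factors were AGATAA and, in another form, TGATAA. The word of Foxo factors was TGTTTAC.
Rag1: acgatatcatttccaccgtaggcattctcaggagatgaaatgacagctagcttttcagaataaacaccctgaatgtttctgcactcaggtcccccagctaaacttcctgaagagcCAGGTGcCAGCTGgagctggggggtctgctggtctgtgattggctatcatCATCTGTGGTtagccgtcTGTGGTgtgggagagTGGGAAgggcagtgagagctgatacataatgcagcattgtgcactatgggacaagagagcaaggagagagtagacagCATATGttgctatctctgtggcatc
Rag2: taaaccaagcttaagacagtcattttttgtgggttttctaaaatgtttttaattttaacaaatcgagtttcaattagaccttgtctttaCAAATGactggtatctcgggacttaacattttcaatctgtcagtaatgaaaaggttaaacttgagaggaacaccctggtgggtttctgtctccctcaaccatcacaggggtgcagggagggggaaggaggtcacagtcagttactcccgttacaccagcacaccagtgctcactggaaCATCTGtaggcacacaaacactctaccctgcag
Dntt: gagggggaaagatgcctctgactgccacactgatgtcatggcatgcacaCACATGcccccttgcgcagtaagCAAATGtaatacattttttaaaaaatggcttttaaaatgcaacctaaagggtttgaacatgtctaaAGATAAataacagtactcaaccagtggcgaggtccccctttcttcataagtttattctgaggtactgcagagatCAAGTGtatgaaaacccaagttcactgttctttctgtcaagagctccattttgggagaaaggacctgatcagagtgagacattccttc
The Rag1 window held 4 E-boxes, 2 Runx words and 1 Rbpj word, and one E-box overlaps one Runx word. The Rag2 window held 2 E-boxes and no other word searched, and the Dntt window held 3 E-boxes and 1 Gata word of the first form. Of 32851 RefSeq promoter windows of the same length, 72.3% held an E-box, 25.6% the Rbpj word, 16.8% the Runx word, 11.2% the first Gata word, 9.05% the other Gata word and 3.65% the Foxo word. That other Gata word and the Foxo word were in none of the 3 windows. A match is a description of letters and not of binding.

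Of the 3 genes Dntt had the most counts for its length in all groups of the pI-pC and antibody table. Per kilobase of exon its level was 1.77 to 4.54 times that of Rag1 in the 12 DN3 libraries and 12.1 to 85.7 times in the 12 ETP libraries. Against Rag2 per kilobase, the Dntt level was 23.4 to 52.4 times in DN3 and 48.0 to 398 times in ETP. Rag2 was the lowest of the 3 in DN3, with Rag1 at 10.1 to 16.7 times its per-kilobase level. In the ETP libraries that multiple was 0.861 to 7.71, so in at least one ETP library Rag1 and Rag2 stood near the same per-kilobase level.

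Rag1 levels in the pI-pC and antibody table ran, from the highest group mean, through IgG DN3 (4635 ± 172 CPM), AntiNRR DN3 (3644 ± 423), MxCre DN3 (3373 ± 473), DeltaMxCre DN3 (1983 ± 200), DeltaMxCre ETP (669 ± 97.7), IgG ETP (667 ± 200), AntiNRR ETP (288 ± 124) and MxCre ETP (255 ± 144; SD, n = 3 for each group). Neighbours in that order overlapped in their libraries between AntiNRR DN3 and MxCre DN3, between DeltaMxCre ETP and IgG ETP, and between AntiNRR ETP and MxCre ETP. The other neighbours did not overlap. The 2 ETP control groups did not overlap for Rag1, with 440, 751 and 812 CPM in IgG ETP and 110, 257 and 398 CPM in MxCre ETP. The difference between these 2 control groups was not tested.

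Rag2 followed with IgG DN3 (176 ± 8.57 CPM), AntiNRR DN3 (147 ± 25.2), MxCre DN3 (124 ± 23.1), DeltaMxCre DN3 (95.3 ± 6.98), MxCre ETP (66.9 ± 18.8), IgG ETP (64.2 ± 12.8), DeltaMxCre ETP (53.0 ± 1.67) and AntiNRR ETP (36.8 ± 19.3; SD, n = 3 for each group). Neighbours overlapped everywhere in this order except at the step between DeltaMxCre DN3 and MxCre ETP, which is the step between the stages. Dntt had its highest mean in AntiNRR ETP (4640 ± 607 CPM) and its lowest in DeltaMxCre DN3 (2941 ± 233; SD, n = 3 for each group). Its 6 other groups lay between 3059 and 4282 CPM, and only IgG ETP and DeltaMxCre ETP, next to each other in the order, did not overlap. The highest Dntt group mean was therefore less than 2 times the lowest, against a span from 255 to 4635 CPM for Rag1.

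**Figure D1:**
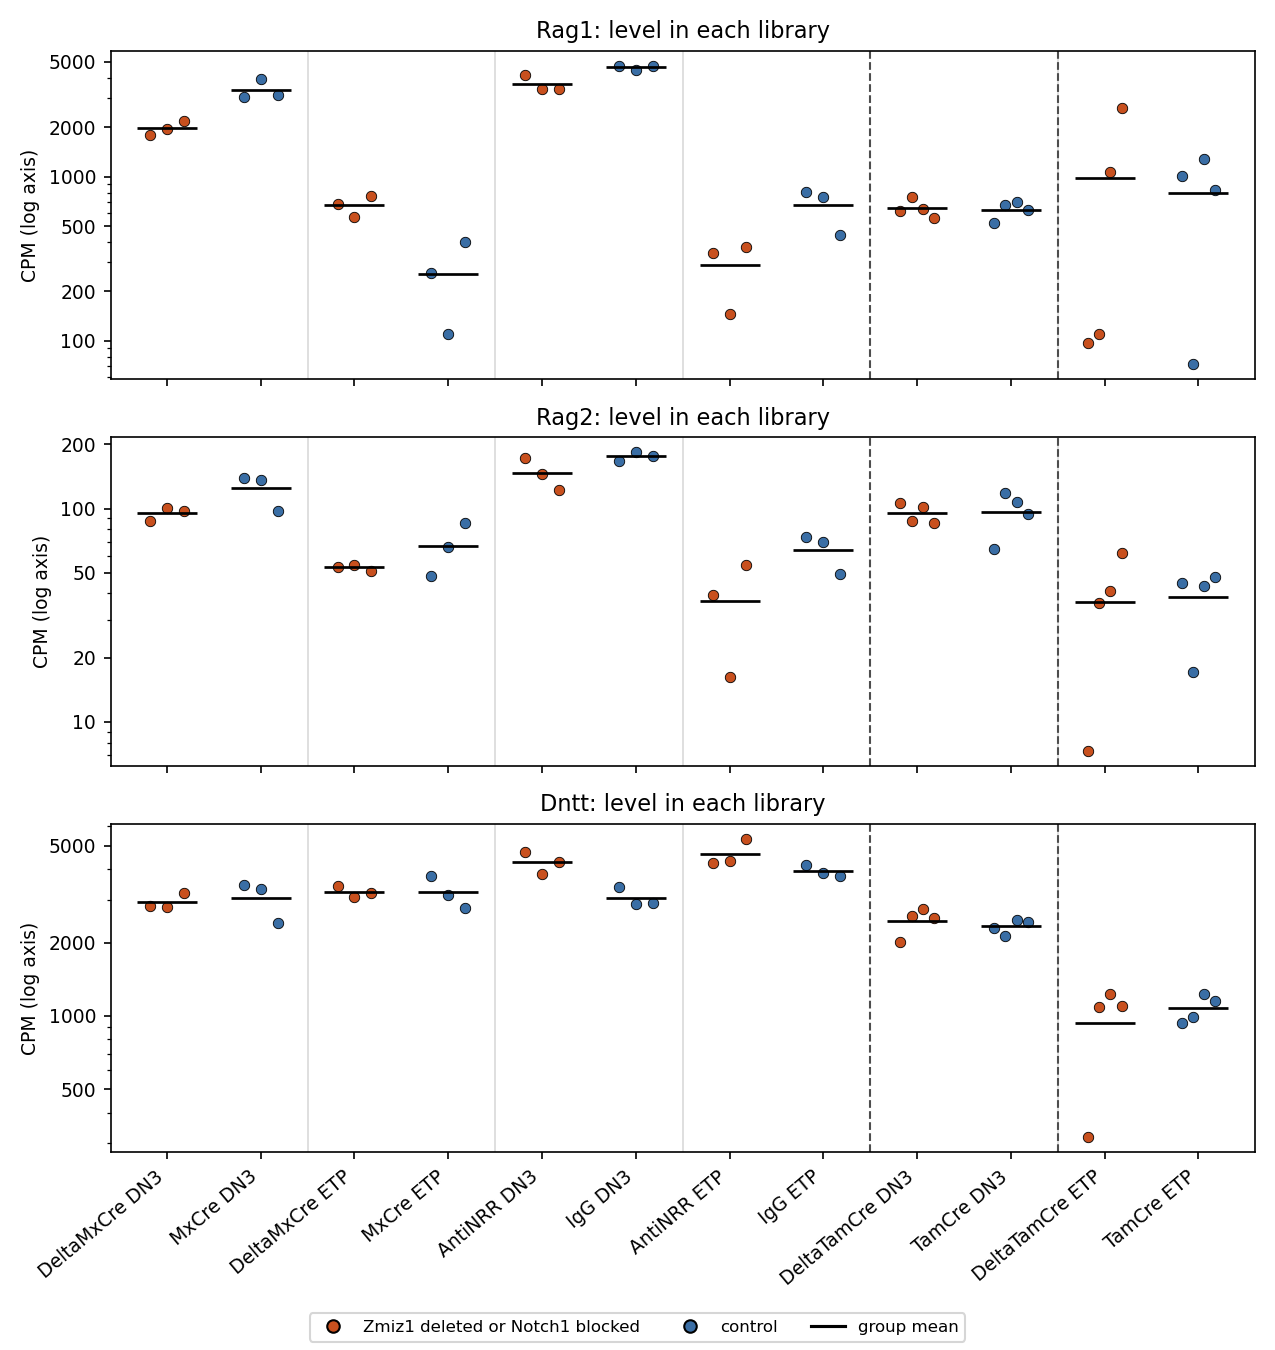
Level of Rag1, Rag2 and Dntt in each of the 40 libraries (points, CPM on a log axis) with the group mean (bar). Deleted or Notch1-blocked groups stand left of their controls, and dashed lines separate the 3 tables, whose levels are not comparable. In the pI-pC and antibody table the 12 DN3 libraries of Rag1 lie at 1794 to 4742 CPM and the 12 ETP libraries at 110 to 812 CPM.

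Between the stages, Rag1 was higher in DN3 than in ETP in all 4 pairs of groups of the pI-pC and antibody table. Over the 12 DN3 libraries Rag1 had 1794 to 4742 CPM (median 3399), and over the 12 ETP libraries 110 to 812 CPM (median 419). Rag2 had 87.5 to 184 CPM (median 138) in DN3 and 16.3 to 86.0 CPM (median 53.9) in ETP. For both genes no ETP library reached the lowest DN3 library. The margin was wide for Rag1 and narrow for Rag2, where the lowest DN3 library (DeltaMxCre DN3 1, 87.5 CPM) stood next to the highest ETP library (MxCre ETP 3, 86.0 CPM). Dntt had 2413 to 4723 CPM (median 3264) in DN3 and 2766 to 5339 CPM (median 3756) in ETP, and all 12 ETP libraries lay above the lowest DN3 library. In sorted bulk cells, a larger share of cells that express a gene and more of its RNA per cell cannot be told apart.

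edgeR called Rag1 higher in DN3 in DeltaMxCre (log2 fold change 1.54, SE 0.129, edgeR adjusted p = 4.61e-05), where 11.3% of all genes tested were called in either direction, 5.14% higher and 6.21% lower (DESeq2 16.3%). It was also called in MxCre (3.70, SE 0.423, edgeR adjusted p = 0.00235; 2.99% of genes called, 0.895% higher and 2.1% lower, DESeq2 8.25%), in AntiNRR (3.67, SE 0.333, edgeR adjusted p = 0.000346; 11.6%, 5.75% higher and 5.87% lower, DESeq2 15.2%) and in IgG (2.80, SE 0.194, edgeR adjusted p = 1.38e-06; 14.7%, 7.12% higher and 7.6% lower, DESeq2 17.7%). As folds these are 2.90 in DeltaMxCre, 13.0 in MxCre, 12.8 in AntiNRR and 6.94 in IgG. Rag1 was called in every fit that left out 1 library.

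Rag2 rose in DN3 in DeltaMxCre (log2 fold change 0.81, SE 0.154, edgeR adjusted p = 0.00656), AntiNRR (2.01, SE 0.374, edgeR adjusted p = 0.01) and IgG (1.45, SE 0.156, edgeR adjusted p = 1.60e-05). In MxCre, with 97.8 to 139 CPM in DN3 and 48.6 to 86.0 CPM in ETP, its log2 fold change was 0.87 (SE 0.254, edgeR adjusted p = 0.111), which DESeq2 called (DESeq2 adjusted p = 0.0333) and edgeR did not. Without MxCre ETP 3, the highest ETP library, edgeR called it at 1.09 (edgeR adjusted p = 0.0369). The DeltaMxCre call of Rag2 was lost without DeltaMxCre DN3 2 (0.78, edgeR adjusted p = 0.0534).

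Dntt differed little between the stages. Its log2 fold changes of DN3 over ETP were -0.17 in DeltaMxCre, -0.10 in MxCre and -0.11 in AntiNRR, and edgeR called none of them (edgeR adjusted p = 0.335 to 0.893). In IgG the Dntt level fell to 3059 ± 294 CPM in DN3, against 3930 ± 212 CPM in ETP (SD, n = 3 each; log2 fold change -0.36, SE 0.116, edgeR adjusted p = 0.0462). The libraries of IgG DN3 had 2875, 2904 and 3398 CPM and those of IgG ETP 3762, 3862 and 4168 CPM. Myeloid markers summed to 12.9 to 27.4 CPM over the 12 DN3 libraries and 39.8 to 477 CPM over the 12 ETP libraries. Which cells they came from, and their part in the stage differences, was not tested. The Dntt call in IgG was lost without IgG ETP 1 (edgeR adjusted p = 0.155), IgG ETP 2 (0.0854), IgG DN3 2 (0.227) or IgG DN3 3 (0.239).

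**Figure D2:**
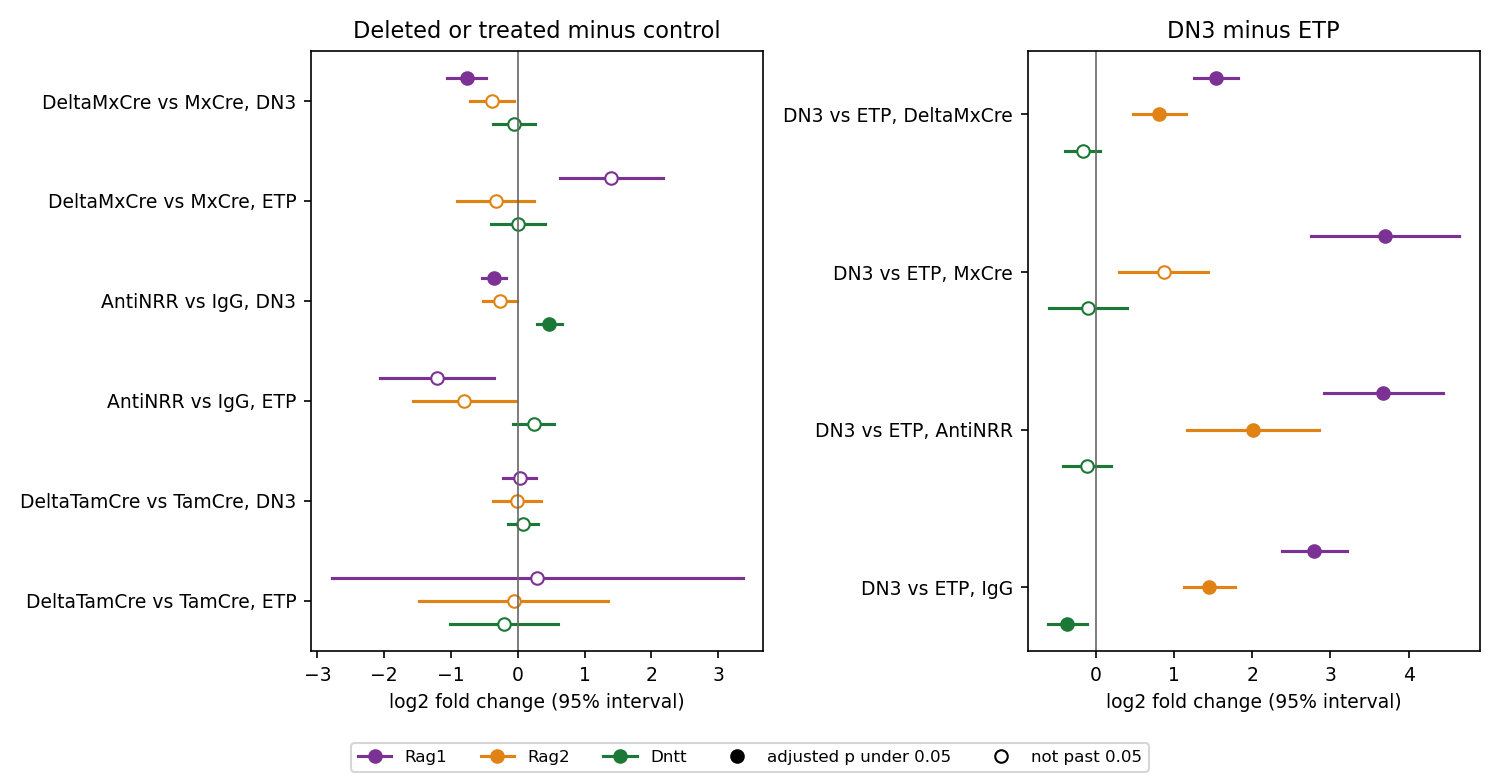
log2 fold changes of Rag1, Rag2 and Dntt with 95% intervals, for the 6 deleted or treated groups over their controls (left) and for DN3 over ETP in 4 pairs of groups (right). Filled points had an edgeR adjusted p under 0.05: Rag1 in 6 of the 10 comparisons, Rag2 in 3 and Dntt in 2.

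Deletion of Zmiz1 for 8 weeks lowered Rag1 in DN3 cells. The libraries had 1794, 1962 and 2192 CPM in DeltaMxCre DN3 and 3050, 3155 and 3916 CPM in MxCre DN3, so every deleted library lay below every control library. These levels rest on 23975 to 40884 counts per library in DeltaMxCre DN3 and 53208 to 64680 in MxCre DN3. The log2 fold change was -0.77 (SE 0.140, 95% interval -1.06 to -0.47, edgeR adjusted p = 0.0161), a fold of 0.588. Rag1 was the only 1 of the 3 genes called, where 0.458% of the 12675 genes tested fell and 1.44% were called in either direction. DESeq2 also called it (DESeq2 adjusted p = 1.14e-05), among 4.16% of genes. The edgeR call was lost without MxCre DN3 2, the highest control (log2 fold change -0.65, edgeR adjusted p = 0.054), without DeltaMxCre DN3 2 (-0.75, 0.105) and without DeltaMxCre DN3 3 (-0.84, 0.0863).

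Rag2 in the same cells had 87.5, 97.1 and 101 CPM in DeltaMxCre DN3 and 97.8, 137 and 139 CPM in MxCre DN3. The groups overlapped through MxCre DN3 3, which lay among the deleted libraries. Its log2 fold change was -0.38 (SE 0.154, 95% interval -0.71 to -0.06, edgeR adjusted p = 0.230), and without MxCre DN3 3 it was -0.53 (edgeR adjusted p = 0.0332). Dntt had 2788, 2827 and 3209 CPM in DeltaMxCre DN3 and 2413, 3318 and 3457 CPM in MxCre DN3. The lowest and the highest of these 6 libraries were both controls, and the log2 fold change was -0.06 (95% interval -0.37 to 0.26, edgeR adjusted p = 0.898).

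Other transcripts moved beside Rag1 in this comparison. Themis, a T-cell receptor signalling gene on the double-positive marker list, rose to a mean of 617 CPM in DeltaMxCre DN3, against 415 CPM in MxCre DN3 (n = 3 each; log2 fold change 0.57, SE 0.127, edgeR adjusted p = 0.0342). It was the 1 gene of the 8 on that list that edgeR called, and the summed level of the list was 1735 to 2286 CPM in DeltaMxCre DN3 and 1313 to 1479 CPM in MxCre DN3. The defining markers Cd4, Cd8a and Cd8b1 were at 3.57 to 7.01 CPM on average in DeltaMxCre DN3 and 4.91 to 6.93 CPM in MxCre DN3. Ms4a4b, a mature T-cell marker, rose to 19.9 ± 2.35 CPM in DeltaMxCre DN3, against 5.66 ± 3.04 CPM in MxCre DN3 (SD, n = 3 each; edgeR adjusted p = 0.0197). It was the 1 of 4 mature T-cell markers tested that edgeR called, with the summed list at 683 to 944 CPM in DeltaMxCre DN3 and 413 to 605 CPM in MxCre DN3. The part of such cells in the Rag1 difference was not tested.

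In ETP the same deletion went with a higher Rag1 that only some tests called. The libraries had 567, 679 and 762 CPM in DeltaMxCre ETP and 110, 257 and 398 CPM in MxCre ETP. The groups did not overlap, and the control group spread 3.63-fold between its lowest and highest library, against 1.34-fold among the deleted libraries. The log2 fold change was 1.40 (SE 0.353, 95% interval 0.63 to 2.17), which edgeR did not call (edgeR adjusted p = 0.403) and DESeq2 did (DESeq2 adjusted p = 0.00369). edgeR called 5 of 12010 genes here (0.0416%), and DESeq2 0.719% of the genes it tested. Leaving out 1 library at a time gave 1.04 to 1.86, with no edgeR call (edgeR adjusted p = 0.0837 to 1).

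Rag2 and Dntt did not follow Rag1 in these cells. Rag2 had 51.2, 53.2 and 54.5 CPM in DeltaMxCre ETP and 48.6, 66.0 and 86.0 CPM in MxCre ETP, and the 3 deleted libraries fell inside the range of the controls (log2 fold change -0.33, 95% interval -0.91 to 0.25, edgeR adjusted p = 0.996). Dntt had 3087, 3187 and 3427 CPM in DeltaMxCre ETP and 2766, 3138 and 3751 CPM in MxCre ETP, again inside the control range (0.01, 95% interval -0.40 to 0.41, edgeR adjusted p = 0.997).

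Markers of the later stage were also higher in DeltaMxCre ETP. Il2ra had 4732 ± 251 CPM in DeltaMxCre ETP and 1972 ± 341 CPM in MxCre ETP (SD, n = 3 each; edgeR adjusted p = 0.0362). Ptcra had 46.5 ± 16.2 CPM in DeltaMxCre ETP and 3.93 ± 2.74 CPM in MxCre ETP (SD, n = 3 each; edgeR adjusted p = 0.0493). Both were among the 5 genes called, and Cd44 had 59.6 ± 12.1 CPM in DeltaMxCre ETP and 145 ± 44.2 CPM in MxCre ETP (SD, n = 3 each), called by DESeq2 only (DESeq2 adjusted p = 0.00646). The 6 myeloid markers summed to 39.8 to 76.0 CPM in DeltaMxCre ETP and 73.4 to 204 CPM in MxCre ETP, and the 6 natural killer and innate lymphoid markers to 19.5 to 54.6 CPM in DeltaMxCre ETP and 110 to 294 CPM in MxCre ETP. DESeq2 called 2 myeloid markers lower, Mpo and Fcgr3, and 1 killer marker lower, Gzma, and edgeR called none. Their part in the Rag1 difference was not tested.

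The deletion effect on Rag1 thus had opposite signs in DN3 and ETP, at -0.77 and 1.40 on the log2 scale. The interaction of deletion and stage, fitted over the 12 libraries, was -2.16 (SE 0.435, 95% interval -3.09 to -1.24, unadjusted p = 0.000163 in a model fitted across all genes by edgeR). It did not pass after adjustment (edgeR adjusted p = 0.218) and did pass by DESeq2 (DESeq2 adjusted p = 7.53e-05). edgeR called 1 of 13406 genes in this contrast (0.00746%), DESeq2 0.376%. Without MxCre ETP 2 or MxCre ETP 3, edgeR called Rag1 at -1.82 (edgeR adjusted p = 0.0406) and -2.64 (edgeR adjusted p = 0.00691). Rag2 (-0.05, 95% interval -0.67 to 0.57) and Dntt (-0.06, 95% interval -0.56 to 0.44) had interactions near 0.

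Blocking Notch1 for 24 hours changed Dntt and Rag1 in DN3 in opposite directions. Dntt had 3833, 4290 and 4723 CPM in AntiNRR DN3 and 2875, 2904 and 3398 CPM in IgG DN3, with no overlap. Its log2 fold change was 0.47 (SE 0.0919, 95% interval 0.28 to 0.66, edgeR adjusted p = 0.00227), a fold of 1.39. It was called in each of the 6 fits that left out 1 library. Rag1 had 3397, 3401 and 4132 CPM in AntiNRR DN3 and 4436, 4725 and 4742 CPM in IgG DN3, also without overlap. It fell by 0.36 on the log2 scale (SE 0.0880, 95% interval of the log2 fold change -0.54 to -0.18, edgeR adjusted p = 0.0145), a fold of 0.779. The Rag1 call was lost without IgG DN3 3 (edgeR adjusted p = 0.0899), AntiNRR DN3 2 (0.116) or AntiNRR DN3 3 (0.0954), with log2 fold changes of -0.34, -0.31 and -0.31.

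Called members were 2 of 3 in a comparison where edgeR called 5.61% of 12658 genes, 2.65% higher and 2.96% lower, and DESeq2 8.79%. Rag2 had 122, 146 and 173 CPM in AntiNRR DN3 and 167, 177 and 184 CPM in IgG DN3. One treated library lay within the controls, and the log2 fold change was -0.27 (95% interval -0.52 to -0.02, edgeR adjusted p = 0.248). In the same libraries Il2ra fell to 637 ± 162 CPM in AntiNRR DN3, against 3413 ± 305 CPM in IgG DN3, and Ptcra to 69.1 ± 12.8 CPM in AntiNRR DN3, against 206 ± 11.4 CPM in IgG DN3 (SD, n = 3 each; both called by edgeR). Kit rose to 179 ± 28.5 CPM in AntiNRR DN3, against 98.8 ± 8.98 CPM in IgG DN3 (SD, n = 3 each; edgeR adjusted p = 0.000153). Of the 8 double-positive markers Themis rose and Plxnd1 fell, with Cd4, Cd8a and Cd8b1 not called, and the list summed to 2264 to 2567 CPM in AntiNRR DN3 and 2077 to 2543 CPM in IgG DN3. Gzma, of the killer list, rose to 217 ± 13.3 CPM in AntiNRR DN3, against 118 ± 11.8 CPM in IgG DN3 (SD, n = 3 each; edgeR adjusted p = 3.05e-05). The rest of that list was near or at 0. Tyrobp averaged 1.43 CPM in AntiNRR DN3 and 0.383 CPM in IgG DN3, and Il2rb 0.0690 and 0 CPM. Klrb1c, Klrd1 and Ncr1 had no counts in either group. The killer list summed to 208 to 236 CPM in AntiNRR DN3 and 107 to 130 CPM in IgG DN3. Ms4a4b, 1 of 3 mature T-cell markers tested, rose to 21.4 ± 7.87 CPM in AntiNRR DN3, against 8.51 ± 3.04 CPM in IgG DN3 (SD, n = 3 each; edgeR adjusted p = 0.0271), and that list summed to 481 to 569 CPM in AntiNRR DN3 and 429 to 494 CPM in IgG DN3. The part of a shift in stage or cell type in the Rag1 and Dntt differences was not tested.

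In ETP the antibody gave no call for any of the 3 genes. edgeR called 0 of 12568 genes (0%), while unadjusted p fell under 0.05 for 328 genes that were higher and 359 that were lower, and DESeq2 called 28 (0.223%). Rag1 had 146, 344 and 373 CPM in AntiNRR ETP and 440, 751 and 812 CPM in IgG ETP. Its log2 fold change was -1.22 (SE 0.370, 95% interval -2.07 to -0.36, edgeR adjusted p = 0.766; DESeq2 adjusted p = 0.508). Rag2 had 16.3, 39.4 and 54.6 CPM in AntiNRR ETP and 49.6, 69.6 and 73.5 CPM in IgG ETP, with 1 treated library inside the control range (-0.80, 95% interval -1.57 to -0.03, edgeR adjusted p = 0.907). AntiNRR ETP 2 was the lowest of the 6 libraries for both Rag genes. Dntt had 4243, 4337 and 5339 CPM in AntiNRR ETP and 3762, 3862 and 4168 CPM in IgG ETP (0.24, 95% interval -0.07 to 0.55, edgeR adjusted p = 0.968). The double-positive markers summed to 848 to 1251 CPM in AntiNRR ETP and 772 to 1278 CPM in IgG ETP, with none called. Il2ra had 270, 423 and 1026 CPM in AntiNRR ETP and 1852, 2055 and 2568 CPM in IgG ETP, and Ptcra 1.12 to 15.2 CPM in AntiNRR ETP and 25.5 to 41.6 CPM in IgG ETP. Neither overlapped and neither was called (edgeR adjusted p = 0.770 for Il2ra and 0.848 for Ptcra). Killer markers summed to 121 to 324 CPM in AntiNRR ETP and 85.3 to 206 CPM in IgG ETP, and myeloid markers to 84.6 to 477 CPM in AntiNRR ETP and 72.6 to 323 CPM in IgG ETP. Their part in the Rag1 and Dntt values was not tested.

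The Dntt fold changes under the antibody were of the same sign in both stages, 0.47 in DN3 and 0.24 in ETP, and so were those of Rag1, -0.36 and -1.22. The interactions of antibody and stage were 0.87 for Rag1 (95% interval -0.12 to 1.86), 0.55 for Rag2 (-0.42 to 1.52) and 0.25 for Dntt (-0.13 to 0.62), none of them called (edgeR adjusted p = 0.907, 0.955 and 0.947). edgeR called 0 of 13603 genes in that contrast (0%), while unadjusted p fell under 0.05 for 386 genes that were higher and 357 that were lower, and DESeq2 called 5 (0.0369%).

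The pI-pC deletion and the antibody share no library, so their effects could be set against each other. In DN3, the deletion effect minus the antibody effect was -0.55 for Dntt (SE 0.173, 95% interval -0.90 to -0.19, edgeR adjusted p = 0.133) and -0.42 for Rag1 (SE 0.160, -0.75 to -0.09, edgeR adjusted p = 0.232). edgeR called 167 of 13557 genes in this contrast (1.23%, with 0.76% higher and 0.472% lower; DESeq2 2.54%) and none of the 3 members. Without MxCre DN3 3, whose Dntt was the lowest of the 6 pI-pC DN3 libraries, the Dntt contrast was called at -0.68 (edgeR adjusted p = 0.00618). In ETP the Rag1 contrast was 2.63 (SE 0.646, 95% interval 1.20 to 4.06), not called by edgeR (edgeR adjusted p = 0.337; 0.082% of 13408 genes called, 0.0597% higher and 0.0224% lower) and called by DESeq2 (DESeq2 adjusted p = 0.0143; 0.653%). The Rag1 log2 fold changes behind it were 1.40 after deletion and -1.22 after the antibody, each against its own control. Rag2 had 0.49 (95% interval -0.46 to 1.45) and Dntt -0.22 (-0.71 to 0.28) in the same contrast.

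Acute deletion by tamoxifen left the 3 genes in DN3 without a detectable difference. Rag1 had 563, 622, 634 and 751 CPM in DeltaTamCre DN3 and 523, 624, 672 and 704 CPM in TamCre DN3 (log2 fold change 0.03, 95% interval -0.22 to 0.27, edgeR adjusted p = 0.930). Rag2 had 85.3, 87.9, 102 and 106 CPM in DeltaTamCre DN3 and 64.7, 94.4, 108 and 118 CPM in TamCre DN3 (-0.01, 95% interval -0.38 to 0.35, edgeR adjusted p = 0.976). Dntt had 2010, 2514, 2582 and 2750 CPM in DeltaTamCre DN3 and 2131, 2292, 2441 and 2483 CPM in TamCre DN3 (0.08, 95% interval -0.15 to 0.31, edgeR adjusted p = 0.768). The groups overlapped for all 3 genes in a comparison where edgeR called 0.0827% of 13298 genes, 0.0526% higher and 0.0301% lower, and DESeq2 3.99%. The 95% interval of Rag1 in this comparison did not reach the value of -0.77 found 8 weeks after pI-pC, which came from other kits, another Cre and another time. The loss of Zmiz1 RNA also differed, with a fold of 0.633 in tamoxifen DN3 and 0.377 in pI-pC DN3. The difference of the Rag1 effects was not tested.

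In the tamoxifen ETP libraries the spread within each group exceeded any difference between them. Rag1 had 97.2, 110, 1066 and 2626 CPM in DeltaTamCre ETP and 71.9, 827, 1011 and 1280 CPM in TamCre ETP, a 27.0-fold span among the deleted libraries and a 17.8-fold span among the controls. Rag2 had 7.31, 36.1, 41.0 and 62.1 CPM in DeltaTamCre ETP and 17.2, 43.6, 44.8 and 47.9 CPM in TamCre ETP. Dntt had 317, 1083, 1096 and 1231 CPM in DeltaTamCre ETP and 937, 992, 1147 and 1231 CPM in TamCre ETP. The log2 fold changes were 0.29 for Rag1 (95% interval -2.79 to 3.37), -0.06 for Rag2 (-1.47 to 1.35) and -0.21 for Dntt (-1.01 to 0.60), with edgeR adjusted p of 0.986, 0.993 and 0.944. edgeR called 0 of 12924 genes (0%), while unadjusted p fell under 0.05 for 343 genes that were higher and 297 that were lower, and DESeq2 called 2 (0.0155%). Intervals this wide leave a several-fold change of Rag1 in either direction not detectable. Without DeltaTamCre ETP 4 the Rag1 value was -0.91, and without TamCre ETP 2 it was -0.10.

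Within these 8 libraries the low-Rag1 libraries were also the low-Cd8a libraries. Cd8a, a defining double-positive marker, had 18.3, 16.8, 131 and 341 CPM in DeltaTamCre ETP 1 to 4 and 135, 10.2, 178 and 111 CPM in TamCre ETP 1 to 4. In the same order Rag1 had 97.2, 110, 1066 and 2626 CPM in DeltaTamCre ETP and 1011, 71.9, 1280 and 827 CPM in TamCre ETP. The 3 libraries under 20 CPM of Cd8a were the 3 libraries with the lowest Rag1. All 8 double-positive markers had counts in every one of these libraries, and their sum was 459 to 2608 CPM in DeltaTamCre ETP and 484 to 1335 CPM in TamCre ETP. Rag2 and Dntt did not follow Cd8a as closely, since DeltaTamCre ETP 2 had 36.1 CPM of Rag2 and 1083 CPM of Dntt with a low Cd8a. DeltaTamCre ETP 1 stood apart by a Dntt of 317 CPM, and it also had the highest Cd44 (312 CPM) and the lowest Il2ra (865 CPM) of the 8. Markers of natural killer and innate lymphoid cells were also unequal: the 6 genes summed to 592, 64.7, 55.8 and 32.1 CPM in DeltaTamCre ETP 1 to 4 and 118, 286, 57.1 and 74.3 CPM in TamCre ETP 1 to 4. Il2rb, the interleukin receptor chain of killer cells, had 432 CPM in DeltaTamCre ETP 1 and 202 CPM in TamCre ETP 2, and Klrb1c, a killer-cell receptor, had 103 CPM and 27.2 CPM in these libraries, the highest of the 8 for both genes. These are 2 of the 3 low-Rag1 libraries, and the other one, DeltaTamCre ETP 2, had 21.0 CPM of Il2rb and 1.79 CPM of Klrb1c. Other genes of the list differed from this. Tyrobp was lowest of its group in DeltaTamCre ETP 1 (13.9 CPM), and Ncr1 was highest in TamCre ETP 1 (6.51 CPM). Without DeltaTamCre ETP 1 the log2 fold changes were 0.66 for Rag1, 0.27 for Rag2 and 0.07 for Dntt, none called. The part of double-positive or killer-like cells in the spread of the 3 genes was not tested. In the pI-pC comparison Cd8a was at 2.11 to 3.47 CPM in DeltaMxCre ETP and 1.60 to 5.49 CPM in MxCre ETP.

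**Figure D3:**
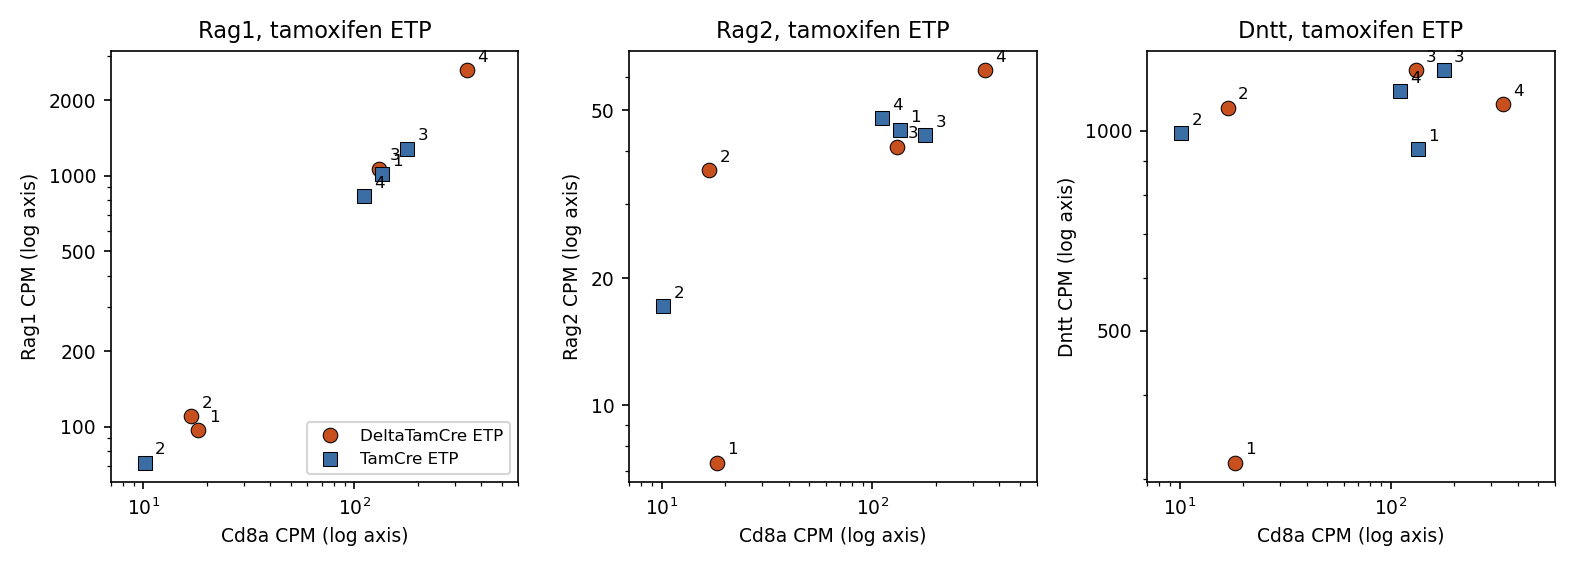
Level of each gene against Cd8a in the 8 tamoxifen ETP libraries (CPM on log axes; circles DeltaTamCre ETP, squares TamCre ETP, numbers give the library). The 3 libraries with under 20 CPM of Cd8a have 71.9 to 110 CPM of Rag1, and the other 5 have 827 to 2626 CPM.

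The balance between the 3 genes does not depend on scaling between libraries and was taken as a ratio of counts within each library. Rag1 counts per Rag2 count were 19.4 to 32.3 (median 24.0) in the 12 DN3 libraries of the pI-pC and antibody table and 1.66 to 14.9 (median 8.92) in the 12 ETP libraries. In each of the 4 pairs of groups the DN3 ratios lay above all ETP ratios. In the tables from other kits the ratio was 5.67 to 8.55 in tamoxifen DN3 and 3.05 to 42.3 in tamoxifen ETP, and no comparison is made across kits. DeltaMxCre ETP had ratios of 10.4 to 14.9 and MxCre ETP 1.66 to 5.29, a log2 difference of 1.87. The exact two-sided permutation test over libraries gave p = 0.1, the smallest that 3 libraries against 3 allow (adjusted p = 0.154 over the 20 ratio tests). In DN3 the ratio overlapped between DeltaMxCre (19.4 to 22.6) and MxCre (22.0 to 32.3).

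Rag1 counts per Dntt count separated the deleted or treated group from its control in all 4 comparisons of the pI-pC and antibody table. The ratio was 0.634 to 0.704 in DeltaMxCre DN3 and 0.882 to 1.31 in MxCre DN3. It was 0.793 to 0.886 in AntiNRR DN3 and 1.40 to 1.63 in IgG DN3, a log2 difference of -0.84. It was 0.0337 to 0.0811 in AntiNRR ETP and 0.117 to 0.195 in IgG ETP, a log2 difference of -1.51. In DeltaMxCre ETP it was higher, at 0.184 to 0.239, than in MxCre ETP, at 0.0349 to 0.144. Each of these gave p = 0.1 in the exact permutation test, again the smallest possible. In the tamoxifen tables, where 4 against 4 allow p = 0.0286, both ratios overlapped between the groups (exact permutation p = 0.771 to 1).

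**Figure D4:**
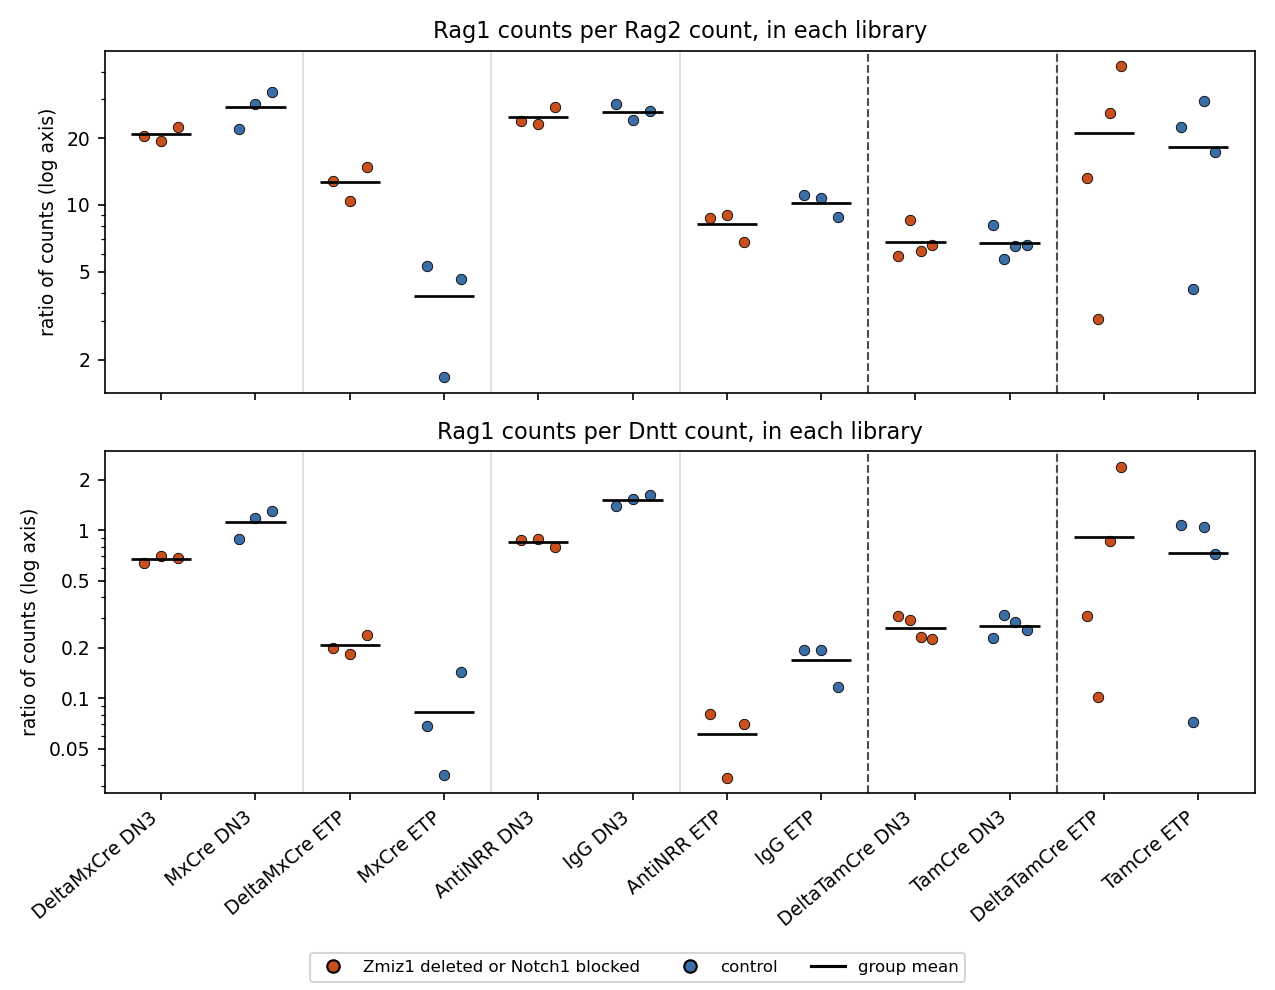
Rag1 counts per Rag2 count and per Dntt count in each library (points, log axis) with the group mean (bar), deleted or blocked groups left of their controls and dashed lines between the 3 tables. Rag1 counts per Dntt count are 0.634 to 1.63 in DN3 and 0.0337 to 0.239 in ETP libraries of the pI-pC and antibody table.

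The proteins that RAG and TdT work with were listed as 20 genes, from the DNA-bending cofactors Hmgb1 and Hmgb2 to the end-joining and damage-response factors. In the 6 comparisons of deleted or treated cells with controls edgeR called 1 of them. Xrcc5, which encodes the Ku80 subunit that holds broken ends, fell to 52.1 ± 6.37 CPM in AntiNRR DN3, against 80.2 ± 11.7 CPM in IgG DN3 (SD, n = 3 each; log2 fold change -0.63, edgeR adjusted p = 0.0208). This is 1 of 20 genes in a comparison where edgeR called 5.61% of all genes tested, 2.65% higher and 2.96% lower. The median log2 fold change of the list there was -0.17, with 16 of 20 below 0, beside -0.01 over all genes tested. DESeq2 called Rif1 lower as well (DESeq2 adjusted p = 0.0446; edgeR adjusted p = 0.0609). Neither the pI-pC nor the tamoxifen deletion gave a call on this list by either tool, and the list medians were 0.02 in pI-pC DN3, -0.10 in pI-pC ETP, 0.00 in tamoxifen DN3, -0.10 in tamoxifen ETP and -0.14 in antibody ETP.

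Between the stages a few genes of the list were called in each direction, and most were not called. Hmgb1 fell to 741 ± 107 CPM in IgG DN3, against 1367 ± 219 CPM in IgG ETP (SD, n = 3 each; log2 fold change -0.88, edgeR adjusted p = 0.000497). Hmgb2 fell to 199 ± 35.6 CPM in IgG DN3, against 512 ± 144 CPM in IgG ETP (SD, n = 3 each; -1.36, edgeR adjusted p = 0.000324). Both also fell in AntiNRR and DeltaMxCre, and H2afx, the histone variant marked at breaks, fell in IgG and DeltaMxCre. Dclre1c, which encodes the hairpin-opening nuclease Artemis, rose to 88.2 ± 9.54 CPM in IgG DN3, against 52.8 ± 17.0 CPM in IgG ETP (SD, n = 3 each; 0.74, edgeR adjusted p = 0.0216), and also rose in AntiNRR. Xrcc6, the Ku70 partner of Ku80, rose in IgG and AntiNRR, Rad50, of the end-sensing complex, in IgG and DeltaMxCre, and Rif1, which protects ends from resection, in DeltaMxCre just under the threshold (log2 fold change 0.43). Polm, a polymerase of the TdT family, rose in DeltaMxCre to 4.20 ± 0.306 CPM in DN3, against 0.197 ± 0.0783 CPM in ETP (SD, n = 3 each; edgeR adjusted p = 0.0408). In MxCre no gene of the list was called by edgeR and 2 were called by DESeq2, both higher. The counts were 3 higher and 3 lower of 20 in DeltaMxCre (5.14% higher and 6.21% lower over all genes tested), the same numbers in IgG (7.12% and 7.6%), and 2 higher and 2 lower in AntiNRR (5.75% and 5.87%).

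Of 16 transcription factors named for their known roles at the Rag or Dntt genes or in these stages, Lef1 was called lower beside Rag1 in both DN3 comparisons of the pI-pC and antibody table. Lef1, a factor of early T-cell genes, had 166 ± 12.7 CPM in DeltaMxCre DN3 and 299 ± 34.6 CPM in MxCre DN3 (SD, n = 3 each; log2 fold change -0.85, edgeR adjusted p = 0.00622). In that comparison 0.458% of all genes tested fell. Lef1 had 155 ± 21.8 CPM in AntiNRR DN3 and 284 ± 21.4 CPM in IgG DN3 (SD, n = 3 each; -0.88, edgeR adjusted p = 2.83e-05). In antibody DN3 4 factors rose: Gata3 (0.79), Satb1 (0.55), Ikzf1 (0.43) and Foxo3 (0.42 on the log2 scale), in a comparison where 2.65% of all genes tested rose and 2.96% fell. Gata3 drives T-cell commitment, Satb1 organises chromatin at thymocyte genes, Ikzf1 encodes Ikaros, and Foxo3 is a relative of Foxo1, an activator of the Rag genes in lymphocytes. Foxo1 itself had 57.8 ± 4.45 CPM in AntiNRR DN3 and 40.8 ± 2.62 CPM in IgG DN3 (SD, n = 3 each), called by DESeq2 (DESeq2 adjusted p = 0.0417) and not by edgeR (edgeR adjusted p = 0.115). No factor of the list was called in the pI-pC ETP, antibody ETP or tamoxifen comparisons by edgeR, while DESeq2 called Lef1 and Tcf7 lower in tamoxifen DN3.

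Across the stages Lef1 rose in DN3 in DeltaMxCre (log2 fold change 3.38), MxCre (3.24) and AntiNRR (1.71). Tcf12, which encodes the E protein HEB that binds E-boxes, rose in DN3 in all 4 pairs of groups (0.47 in DeltaMxCre, 0.88 in MxCre, 0.97 in AntiNRR and 0.74 in IgG). Bcl11b, the commitment factor, rose in DeltaMxCre, AntiNRR and IgG, Ets1 in DeltaMxCre and AntiNRR, Runx1 in AntiNRR and IgG, and Satb1 in DeltaMxCre. Foxo3 fell in DeltaMxCre, Zfp608, a repressor of Rag genes described in mouse thymocytes, fell in MxCre, and Gata3 fell in IgG. Over all genes tested, edgeR called 5.14% higher and 6.21% lower in DeltaMxCre, and 0.895% and 2.1% in MxCre. The shares were 5.75% and 5.87% in AntiNRR and 7.12% and 7.6% in IgG. The factors were listed for their known roles, and no value here ties any of them to the Rag or Dntt levels.

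**Figure D5:**
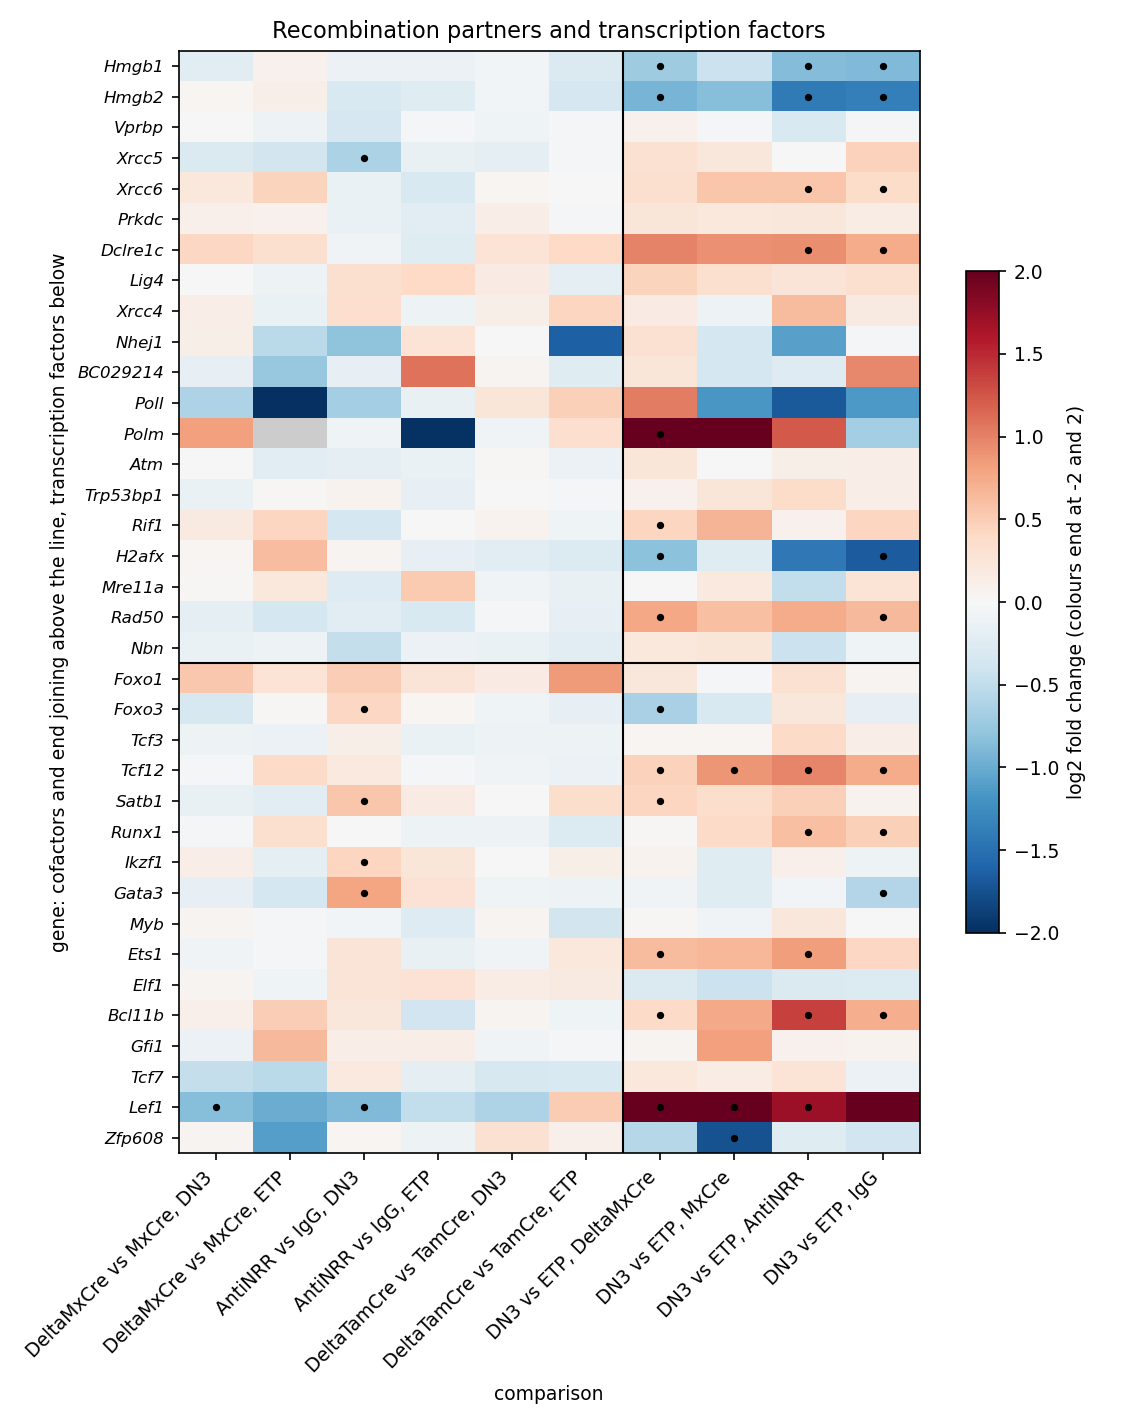
log2 fold changes (colour) of 20 cofactor and end-joining genes and 16 transcription factors in the 6 comparisons with controls and the 4 stage comparisons. Dots mark an edgeR adjusted p under 0.05 and grey a gene not tested. Left of the vertical line the called genes are Xrcc5, Lef1, Foxo3, Satb1, Ikzf1 and Gata3.

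The 3 genes were alike among themselves to different degrees. Over the 24 libraries of the pI-pC and antibody table, log2 CPM of Rag1 and Rag2 had a Pearson r of 0.874 (Spearman rho 0.907), while Rag1 and Dntt had -0.261 and Rag2 and Dntt -0.302. These 24 libraries share stages, treatments and kits, so the values are a description of 2 stages set side by side. In the tamoxifen tables, with 8 libraries each, Rag1 and Rag2 had r of 0.636 in DN3 and 0.796 in ETP, and Rag1 and Dntt 0.186 and 0.517.

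Of 8780 genes compared, those most like Rag1 over the 24 libraries were Hdac4, a class IIa histone deacetylase (r 0.954), Hsdl1 (0.953) and Itgb4, an integrin chain (0.949). Their r in the tamoxifen ETP table was 0.0172, 0.848 and 0.0513. By the lowest r of the 3 tables the most like were Fbln2, a matrix protein (0.814, 0.755 and 0.936 in the pI-pC and antibody, tamoxifen DN3 and tamoxifen ETP tables), Scn4b, a sodium channel subunit (0.942, 0.755 and 0.782), and H19, an imprinted non-coding RNA (0.876, 0.752 and 0.818). For Rag2 the nearest over the 24 libraries were the CD3 chains Cd3e (0.894) and Cd3d (0.885) and then Tmc6 (0.883). Their r in tamoxifen ETP was -0.421, -0.335 and 0.0895. By the lowest r they included 1700052N19Rik (0.731, 0.749 and 0.802 in the same order of tables) and again Scn4b (0.837, 0.792 and 0.706). Dntt had fewer close matches, led by Fndc1 (0.82), Tmem121 (0.798) and Irf2bp2 (0.798), and by the lowest r Prrg4, Slc39a6 and Mgat1. The share of genes with r above 0.8 was 2.12% for Rag1, 0.319% for Rag2 and 0.0114% for Dntt.

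The neighbours of the loci had other patterns. Traf6, which starts 28927 bases beyond Rag1, had at most 118 CPM on average in the 8 groups of the pI-pC and antibody table, and no comparison called it by either tool. Its DN3 over ETP log2 fold changes were 0.02 to 0.16, where those of Rag1 were 1.54 to 3.70. Next to Dntt, Blnk (34739 bases away) averaged at most 1.43 CPM in any group, and Opalin (2184 bases away) had counts in 1 group only, IgG ETP, at 0.619 CPM. B-cell markers, which would mark the other lineage that uses all 3 genes, summed to 8.97 to 60.1 CPM over all 40 libraries.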

How the data were processed

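Bulk RNA-seq of sorted thymocytes was deposited as 3 tables of 40 libraries in all. The authors deposited expected counts (estimated, not all whole) per gene: 0.507 to 1.23% of values in a library lay more than 0.01 from a whole number. Per the submitters' processing notes, the tools were Cufflinks with Cuffdiff 2.1.1, the aligner TopHat2 2.0.9 over Bowtie2 2.1.0.0, and FastQC 0.10.0, on build mm10; annotation and strand are not given in the sources used here. Per the labels' protocols, the pI-pC and antibody libraries, the tamoxifen DN3 libraries and the tamoxifen ETP libraries came from different kits and RNA inputs.

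Counts were rounded and tested with edgeR 4.0.16 (R 4.3.3, limma 3.58.1): quasi-likelihood tests, TMM, filterByExpr (minimum count 10, minimum total 15), Benjamini-Hochberg adjustment over all genes tested, called under 0.05. Each comparison was fitted on its own groups, without replicate blocks. The code was tested on simulated data. DESeq2 1.42.0, other filters, scalings and shared spreads, a replicate block and leaving out each library were alternatives. Intervals are 95%. Levels are CPM scaled by TMM within a table. Likeness used log2 CPM (prior count 2) of genes averaging at least 10 CPM. Ratios were compared by exact two-sided permutation tests. All 3 genes passed the filter in every comparison. Named genes are the 3 members, every gene called from the lists, and the nearest matches by r, of which one for Rag2 is not reported here. The members and lists were chosen with earlier results of these data known. Promoter sequences are from RefSeq (GRCm38.p6), matched for 3 of 3 genes. Figures were drawn with Python 3.11.15, pandas 2.3.3 and matplotlib 3.10.9.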

Additional observations from a re-analysis of the deposited data

Results flagged for a closer look

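Outliers were looked for in the 12 gene and group combinations with 4 libraries, at both ends, by Dixon's ratio of the gap to the nearest library over the whole range. Chance alone gives about 1 in 20 groups, and 2 of the 24 ends stood out. Dntt was 316.901 CPM in DeltaTamCre ETP 1, where the other libraries of its group had 1083 to 1231 CPM (gap over range 0.838). Rag2 was 17.156 CPM in TamCre ETP 2, where the other libraries of its group had 43.6 to 47.9 CPM (gap over range 0.859). The summed killer list was highest in the same libraries, at 592 CPM in DeltaTamCre ETP 1 and 286 CPM in TamCre ETP 2. Il2rb had 432 CPM and Klrb1c 103 CPM in DeltaTamCre ETP 1, and 202 CPM and 27.2 CPM in TamCre ETP 2. Not every gene of the list had this pattern. Tyrobp was lowest of its group in DeltaTamCre ETP 1 (13.9 CPM), and Ncr1 was highest in TamCre ETP 1 (6.51 CPM). The part of killer-like cells in the Dntt and Rag2 values was not tested.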

How the results depend on the processing

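Over all results and alternatives, 674 values were counted as the same, 85 moved, 11 gained and 15 lost the call, and 29 changed sign. For a log2 fold change, the same meant that direction and side of the threshold were kept. For a number of genes called it meant an equal or close number. For a level it meant a shift below the SD of its group, and for likeness a kept sign. With DESeq2 the genes called were 86 in pI-pC ETP, 527 in pI-pC DN3, 2 in tamoxifen ETP, 458 in tamoxifen DN3, 28 in antibody ETP, 1016 between the stages of MxCre, 50 for deletion by stage, 5 for antibody by stage, and for deletion minus antibody 82 in ETP and 344 in DN3. DESeq2 called Rag1 in pI-pC ETP (1.401), in deletion by stage (-2.151) and in deletion minus antibody in ETP (2.626), and Rag2 between the stages of MxCre (0.8704). Without the filter on low counts 18 genes were called in pI-pC ETP, 347 in pI-pC DN3 and 8 in antibody ETP. With a spread shared over more groups 399 genes were called in pI-pC DN3, 1474 between the stages of MxCre and 936 between those of IgG. Under that spread the calls of Rag1 in antibody DN3 (-0.3596, edgeR adjusted p = 0.0737), Rag2 between the stages of DeltaMxCre (0.8465, 0.0537) and Dntt between those of IgG (-0.3617, 0.157) were lost, and Rag2 between those of MxCre was called (0.8956, 0.0313). The cause of these changes was not tested.

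Same-numbered libraries did not deviate together in every pair of any comparison (correlations -0.355 to 0.186; 0 to 2 libraries correlated best with their own number), so the numbers were not taken to pair the samples. With the replicate number as a block 14 genes were called in pI-pC ETP, 0 in tamoxifen DN3, 663 between the stages of MxCre and 0 for deletion by stage. Rag1 in pI-pC ETP was then called (1.566, edgeR adjusted p = 0.0168), Dntt between the stages of IgG was not (-0.3647, 0.114), Rag1 in tamoxifen ETP was -0.1802 and Rag2 in tamoxifen DN3 was 0.01362.

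Leaving out 1 library at a time gave genes called of 0 to 17 in pI-pC ETP, 12 to 403 in pI-pC DN3, 0 to 1 in tamoxifen ETP, 0 to 8 in tamoxifen DN3, 0 to 5 in antibody ETP, 351 to 677 in antibody DN3, 487 to 1814 between the stages of DeltaMxCre, 135 to 735 of MxCre, 549 to 1661 of AntiNRR and 941 to 1883 of IgG, 0 to 12 for deletion by stage, 0 to 3 for antibody by stage, and for deletion minus antibody 5 to 26 in ETP and 99 to 290 in DN3. The Rag1 log2 fold changes were -0.8393 to -0.6456 in pI-pC DN3, -0.9113 to 0.66 in tamoxifen ETP, -0.05746 to 0.08451 in tamoxifen DN3, -0.4608 to -0.3084 in antibody DN3 and -2.638 to -1.815 for deletion by stage. Those of Rag2 were -0.53 to -0.3013 in pI-pC DN3, -0.446 to 0.2709 in tamoxifen ETP, -0.164 to 0.1015 in tamoxifen DN3, 0.775 to 0.8731 between the stages of DeltaMxCre, 0.7015 to 1.094 of MxCre, -0.2794 to 0.1157 for deletion by stage and -0.2633 to 0.0023 for deletion minus antibody in DN3. Those of Dntt were -0.1007 to 0.1393 in pI-pC ETP, -0.2013 to 0.03552 in pI-pC DN3, -0.3729 to 0.07212 in tamoxifen ETP, -0.1959 to 0.04512 between the stages of MxCre, -0.4413 to -0.3166 of IgG, -0.2113 to 0.03612 for deletion by stage and -0.6786 to -0.449 for deletion minus antibody in DN3. The lowest count of any member in a library was 125 (Rag2 in DeltaTamCre ETP 1), and the effect of depth was not tested.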
